A study of Mus musculus with 19 samples.

Results

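Pyruvate dehydrogenase is the mitochondrial enzyme complex that turns pyruvate, the end product of glycolysis, into acetyl-CoA for the citric acid cycle. Its activity is set by phosphorylation of the E1 subunit: the kinases encoded by Pdk1, Pdk2, Pdk3 and Pdk4 switch the complex off, and the phosphatases encoded by Pdp1 and Pdp2 switch it back on. Pdk1 is known as a target of hypoxia-inducible factor in tumours, whereas Pdk4 is known for its high expression in skeletal and heart muscle, where fasting, fatty acids and glucocorticoids raise it. Pdha1 and Pdhb encode the E1 alpha and beta chains, Dlat the E2 acetyltransferase core, and Pdhx the protein that ties the E3 enzyme, dihydrolipoamide dehydrogenase (Dld), to that core.

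These 10 genes were taken by symbol from the 26796 genes of the deposited table, and all 10 were among the 15629 genes that passed the filter on low counts. They were chosen by measured values of these same tumours, namely the opposite moves of Pdk1 and Pdk4 between the treatments and the relation of Pdk4 to muscle transcripts. The difference between the treatments is therefore given as a description, with standard errors and without a test.

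RNA sequencing had been carried out on 19 whole tumours of Met1, a transplantable mouse mammary carcinoma line. The tumour-bearing mice had received extracellular vesicles, membrane particles shed by cells, from neutrophils. The neutrophils had been exposed either to the vehicle DMSO (9 tumours, called DMSO tumours here) or to 27-hydroxycholesterol, an oxysterol made from cholesterol (10 tumours, called 27HC tumours). No group without vesicles was analysed here, so every tumour had received neutrophil vesicles and the treatment itself had reached the neutrophils. The strain, genotype, sex and age of the mice, and the dose and timing of the vesicles, were not stated in the sources used here. Nothing says that each tumour came from its own mouse, so p-values measure the spread between these samples. A whole tumour holds Met1 cells together with host cells, and fewer cells of a type cannot be told apart from less RNA per cell. The titles number the tumours in pairs of digits. What the first digit stands for is not stated; it is 1 in 5 DMSO and 5 27HC tumours and 2 in 4 DMSO and 5 27HC tumours.

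Total expected counts ran from 28139419 to 41179056 per tumour. Among the listed epithelial markers, the keratin gene Krt18 had a median of 86.9 CPM (counts relative to the TMM-normalized size of each library), while the adhesion gene Epcam had a median of 2.12 CPM and Krt8 one of 3.09 CPM. Libraries stood apart in 3 ways. In 5 of them the mean GC content of the transcripts, weighted by counts, was 49.4 to 49.7%, against 50.9 to 52.7% in the other 14. These low GC libraries are DMSO 1_5 and 2_3 and 27HC 1_3, 1_5 and 2_3. Skeletal muscle transcripts varied widely: Acta1, the skeletal muscle actin gene, ran from 0.622 to 1107 CPM, and the 20 listed muscle genes summed to between 35.8 and 5655 CPM. Acta1 reached at least 100 CPM in 3 DMSO tumours (1_1, 1_2 and 1_4) and 4 27HC tumours (1_2, 1_3, 1_5 and 2_3), so all 3 low GC libraries of the 27HC group also belonged to the muscle-rich ones. Salivary gland transcripts summed to 5721 CPM in DMSO 1_5 and to at most 40.2 CPM in the other 18 libraries.

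The regions upstream of Pdk1 and Pdk4 are shown because these kinase genes differ most in the pattern described here. RefSeq held promoter entries for 9 of the 10 genes, all but Pdp1, on GRCm38. Both sequences read 5′ to 3′ on the strand of the gene and end where the annotated gene begins. Capitals mark the core of the hypoxia response element, ACGTG or GCGTG on either strand.
Pdk1, chr2:71872974-71873223, plus strand: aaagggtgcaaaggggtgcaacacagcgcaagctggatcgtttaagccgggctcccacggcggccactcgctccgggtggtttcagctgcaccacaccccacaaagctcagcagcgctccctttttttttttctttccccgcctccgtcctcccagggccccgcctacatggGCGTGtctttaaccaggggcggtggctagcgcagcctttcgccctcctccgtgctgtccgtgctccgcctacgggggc
Pdk4, chr6:5496310-5496528, minus strand: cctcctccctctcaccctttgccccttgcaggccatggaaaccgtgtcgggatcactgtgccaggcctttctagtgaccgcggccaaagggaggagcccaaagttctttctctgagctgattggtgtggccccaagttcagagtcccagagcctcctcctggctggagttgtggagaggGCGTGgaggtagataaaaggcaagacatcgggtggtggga

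Each of these regions held 1 copy of the core, beginning 78 bases before the RefSeq start of Pdk1 and 71 bases before that of Pdk4. Within 250 bases upstream of the start, 8 of the 9 genes held at least 1 copy, Dlat being the exception, and so did 38.6% of all 32851 promoter entries. Pdk3 held 4 copies, Pdha1 3, and Pdk2, Pdp2, Pdhb and Pdhx 2 each. In Pdk2 and Pdp2 the 2 copies overlap on opposite strands of 1 E-box, CACGTG, which 6.02% of all entries hold. The forkhead motif GTAAACA, the oestrogen-related receptor half-site AAGGTCA and the glucocorticoid half-site AGAACA, searched on both strands, had no match in the 9 windows; 3.17%, 4.08% and 16.1% of all entries held them. A match or its absence says only which letters lie in these windows.

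Among the kinases, Pdk1 was lower and Pdk4 higher on average in 27HC tumours, and Pdk2 and Pdk3 lay at similar levels in both groups. Pdk1 (ENSMUSG00000006494, GRCm38 chromosome 2, 71873224 to 71903858) had 43.5 CPM in its lowest DMSO tumour, a median of 49.2 and a highest value of 63.2. In 27HC tumours its lowest value was 26.3 CPM, its median 38.9 and its highest value 47.1. All 10 27HC tumours lay below the DMSO median and 8 of them below the lowest DMSO tumour, yet the groups overlapped through 27HC 2_1 and 2_5, which had 47.1 and 46.9 CPM. Mean levels were 50.1 ± 6.21 CPM in DMSO tumours (SD, n = 9) and 38.7 ± 6.27 CPM in 27HC tumours (SD, n = 10). On the log2 scale the fitted difference was -0.37 (SE 0.11). The highest Pdk1 value came from DMSO 1_5, the library with salivary transcripts; leaving it out gave a log2 fold change of -0.32, the smallest difference among the 19 fits that each left out 1 tumour, which reached -0.43 at the other end.

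The Pdk1 difference had nearly the same size wherever the tumours were split. It was -0.38 (SE 0.18) among tumours whose first title number is 1 and -0.36 (SE 0.19) among those with a 2. Without the 5 low GC libraries it was -0.34 (SE 0.13), and without the 7 libraries with at least 100 CPM of Acta1 it was -0.38 (SE 0.16). With both kinds left out, 10 tumours remained and the value was -0.30 (SE 0.16). Across the 19 tumours Pdk1 had a Pearson correlation with the muscle score, the mean z-score of the 20 muscle genes, of -0.12 after subtraction of treatment means, and of -0.35 in the 14 libraries of higher GC content, both given without a test.

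**Figure D1:**
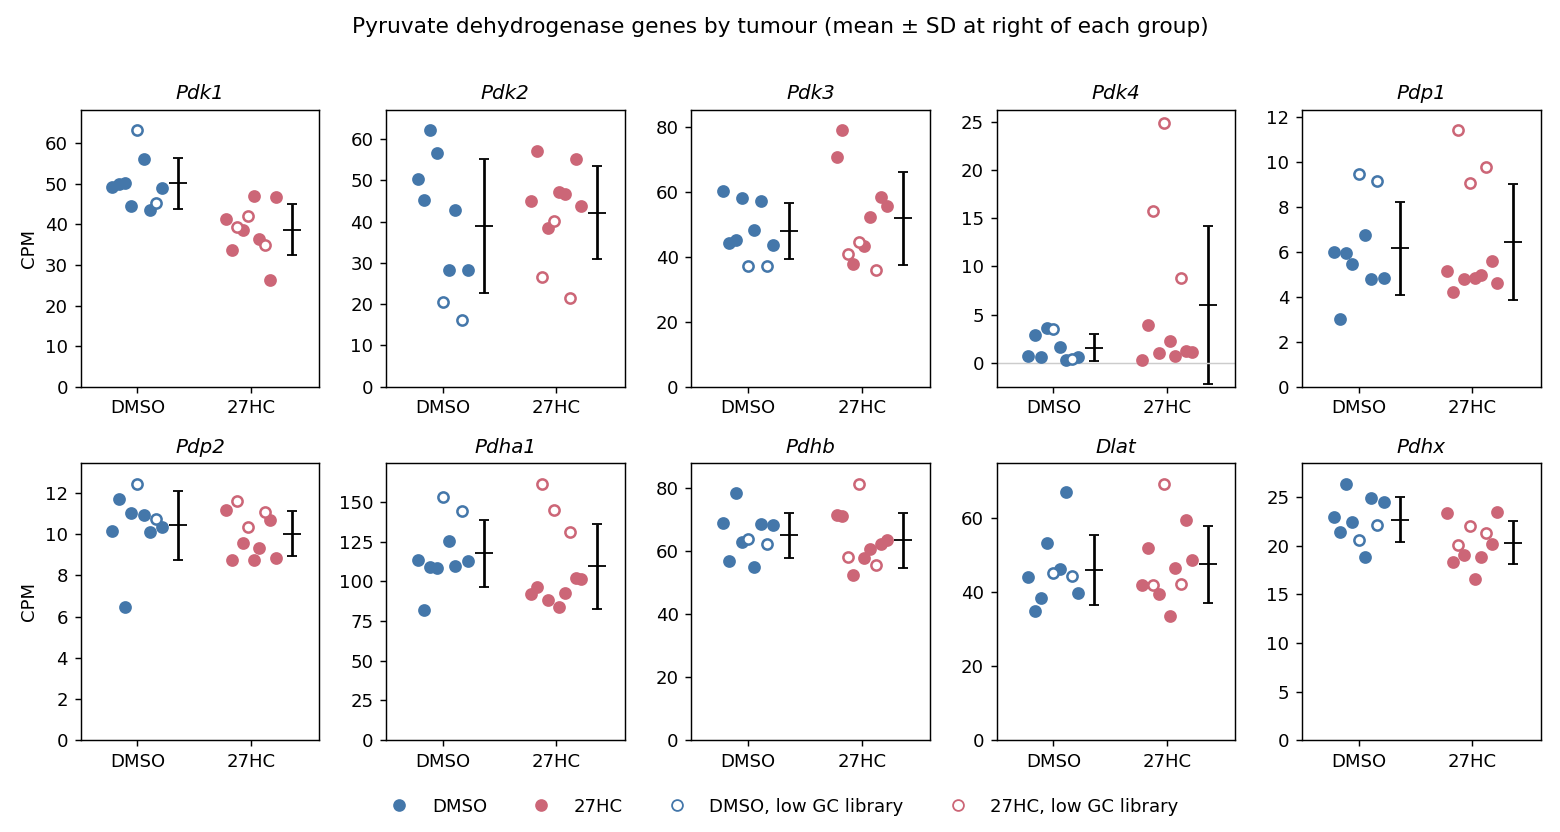
CPM of the 10 genes in each of 19 tumours by treatment, 1 panel per gene; filled points are libraries of higher GC content, open points the 5 low GC libraries, and the black bar at the right of each group is the mean ± SD. Pdk1 is below the DMSO median of 49.2 CPM in all 10 27HC tumours, Pdk4 is highest in 3 27HC tumours drawn as open points, and Pdp1 and Pdha1 are highest in the open points of both groups.

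Pdk4 (ENSMUSG00000019577, chromosome 6, 5483351 to 5496309) was scarce in most tumours and plentiful in a few. It had 0.256 CPM in its lowest DMSO tumour, a median of 0.756 and a highest value of 3.59. The fewest expected counts over all tumours were 7.82, in 27HC 1_1. In 27HC tumours the lowest value was 0.272 CPM, the median 1.76 and the highest 24.9. Of the 10 27HC tumours, 8 lay above the DMSO median and 4 above the highest DMSO tumour. One of these 4 was 27HC 1_2, which exceeded it only narrowly, with 3.87 CPM. The difference in means came mostly from the other 3, 27HC 1_5, 1_3 and 2_3, with 24.9, 15.8 and 8.80 CPM. Mean levels were 1.58 ± 1.39 CPM in DMSO tumours (SD, n = 9) and 5.99 ± 8.24 CPM in 27HC tumours (SD, n = 10). On the log2 scale the fitted difference was 1.92 (SE 0.76). Those 3 tumours are the ones that were both muscle-rich and of low GC content, and without the low GC libraries the means were 1.48 ± 1.29 CPM for 7 DMSO tumours and 1.497 ± 1.21 CPM for 7 27HC tumours.

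Pdk4 followed the muscle transcripts from tumour to tumour. In the 7 tumours with at least 100 CPM of Acta1 its mean was 8.65 ± 8.74 CPM (SD), and in the other 12 it was 1.13 ± 0.962 CPM (SD). With treatment means subtracted, its Pearson correlation with the muscle score was 0.88 and Spearman's rho 0.87 over 19 tumours, and r was 0.80 in the 14 libraries of higher GC content; this relation was one of the reasons for the choice of Pdk4 and is given without a test. Among tumours under 100 CPM of Acta1, Pdk4 ran from 0.256 to 3.53 CPM in 6 DMSO tumours, median 0.602, and from 0.272 to 2.29 CPM in 6 27HC tumours, median 1.04. The log2 fold change was -0.12 (SE 0.61) in those 12 tumours, 0.31 (SE 0.41) with the muscle score as a covariate in all 19, -0.03 (SE 0.57) without the low GC libraries and 0.51 (SE 0.55) without either kind. These values describe the same contrast that chose Pdk4 and test nothing about it.

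**Figure D2:**
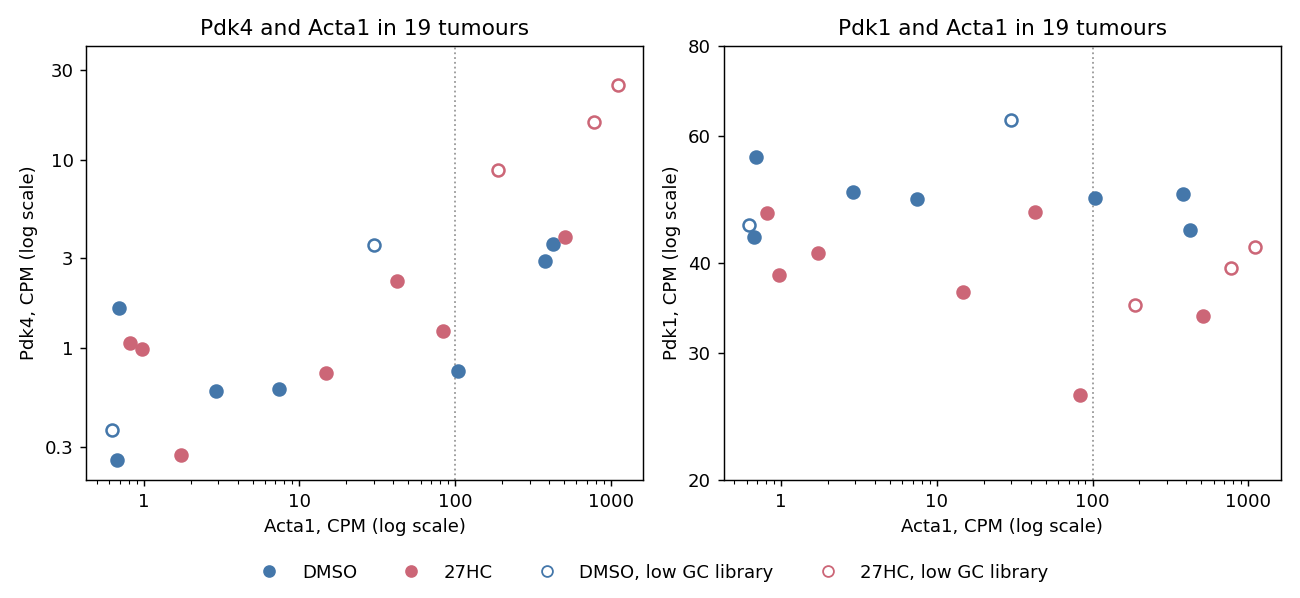
Pdk4 (left) and Pdk1 (right) against Acta1 in 19 tumours, all in CPM on log axes; open points are low GC libraries and the dotted line marks 100 CPM of Acta1. Pdk4 is higher where Acta1 is higher (r of 0.88 with the muscle score) up to 24.9 CPM in 27HC 1_5, while Pdk1 stays between 26.3 and 63.2 CPM at any level of Acta1.

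Pdk2 (chromosome 11, 95026258 to 95041354) encodes the kinase isoform found in most tissues. It ran from 16.1 to 62.1 CPM in DMSO tumours, median 42.9, and from 21.5 to 57.0 CPM in 27HC tumours, median 44.4. The log2 fold change was 0.12 (SE 0.23), and no 27HC tumour left the DMSO range. Pdk3 (chromosome X, 93764607 to 93832201) encodes the kinase isoform least restrained by pyruvate. It ran from 37.1 to 60.2 CPM with DMSO, median 45.3, and from 35.9 to 78.9 CPM with 27HC, median 48.4. The fitted log2 difference was 0.11 (SE 0.15), and 2 27HC tumours, 1_1 and 1_2, exceeded the DMSO range while 2_3 lay below it.

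To compare the kinases with each other, CPM was divided by the length of the longest coding transcript. On this scale Pdk3 had the largest share of the summed kinase transcripts in 17 of 19 tumours and Pdk2 in the other 2. Pdk3 held 45.7 ± 4.96% (SD) of the pool in DMSO and 46.2 ± 5.12% in 27HC tumours, and Pdk2 held 33.2 ± 8.62% and 35.4 ± 5.53%. Pdk1 made up 20.2 ± 5.65% (SD, n = 9) of the pool in DMSO tumours, 13.8 to 30.6%, and 14.7 ± 3.56% (SD, n = 10) in 27HC tumours, 8.79 to 18.9%. Pdk4 was a minor part, with a median of 0.408% in DMSO and 0.976% in 27HC tumours, and reached 13.2% in 27HC 1_5, or 20.7% with the median length of coding transcripts in place of the longest. By mean share the pool was thus led by Pdk3 and Pdk2 in both groups, and Pdk1 held a smaller mean share in 27HC tumours. The highest Pdk1 shares came from the low GC libraries DMSO 1_5 and 2_3, with 30.6% and 26.0%. Pdk2 lay below Pdk1 in both, with 22.9% and 21.3%. The part of library GC content in the difference of mean shares was not tested.

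**Figure D3:**
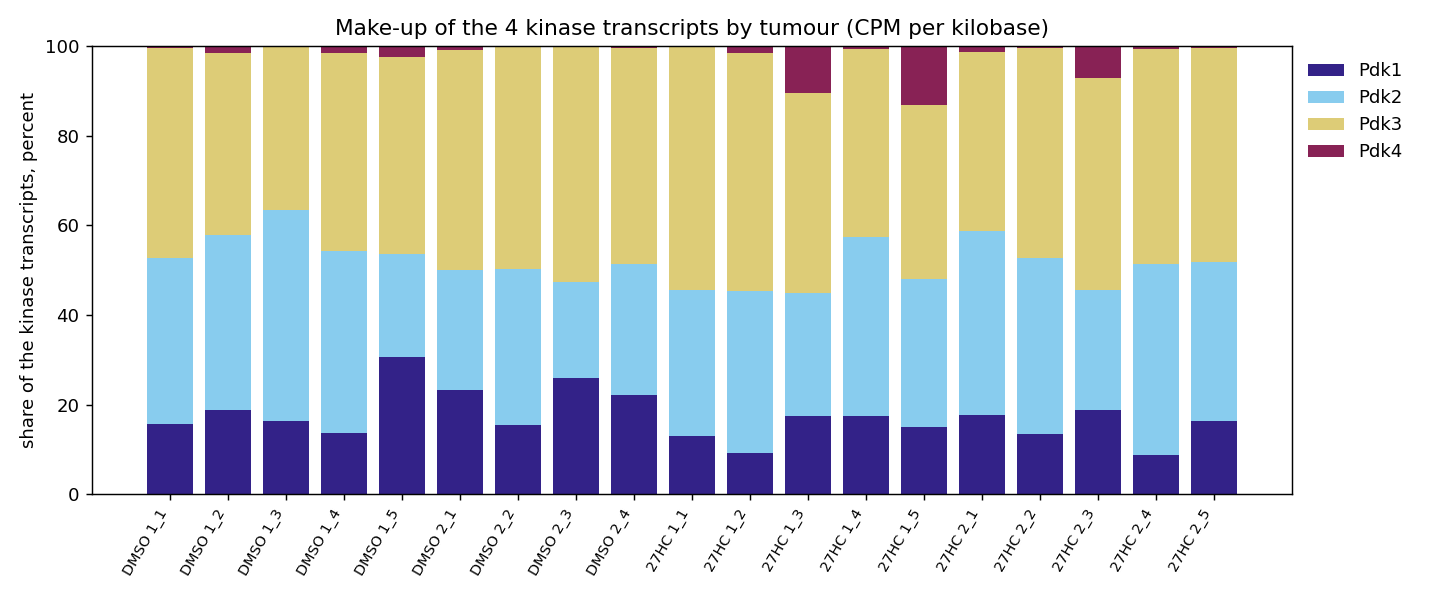
Stacked bars of the share, in percent, of Pdk1, Pdk2, Pdk3 and Pdk4 in their summed CPM per kilobase for each tumour, named by treatment and title numbers. Pdk3 is the largest band in 17 of 19 tumours, and Pdk4 is visible mainly in 27HC 1_3, 1_5 and 2_3, with up to 13.2%.

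The phosphatase genes were expressed below most of the other genes and did not separate the treatments. Pdp1 (chromosome 4, 11958184 to 11966452), the calcium-stimulated phosphatase, ran from 3.01 to 9.48 CPM in DMSO tumours, median 5.97, and from 4.23 to 11.4 CPM in 27HC tumours, median 5.06. Its log2 fold change was 0.07 (SE 0.23). All 5 low GC libraries lay above the other 14, at 9.78 ± 0.956 CPM (SD) against 5.07 ± 0.896 CPM. Pdp2 (chromosome 8, 104591451 to 104599026), the phosphatase isoform that insulin and feeding are known to regulate, ran from 6.45 to 12.4 CPM with DMSO and from 8.76 to 11.6 CPM with 27HC. The medians were 10.8 and 9.95 CPM and the fitted log2 difference -0.06 (SE 0.12).

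The subunits of the complex overlapped between the treatments as well. Pdhb (chromosome 14, 8165996 to 8173025) averaged 65.1 ± 7.12 CPM in 9 DMSO tumours (SD; 55.1 to 78.7) and 63.5 ± 8.79 CPM in 10 27HC tumours (SD; 52.3 to 81.5), with a log2 fold change of -0.04 (SE 0.10). Dlat (chromosome 9, 50634633 to 50659780) ran from 34.9 to 67.0 CPM with DMSO, median 44.2, and from 33.5 to 69.1 CPM with 27HC, median 44.2, with a log2 fold change of 0.05 (SE 0.14). Both genes overlapped between the groups over nearly their whole range. Pdhx (chromosome 2, 103021075 to 103073513) ran from 18.9 to 26.4 CPM with DMSO, median 22.5, and from 16.6 to 23.5 CPM with 27HC, median 20.1. The fitted log2 difference was -0.16 (SE 0.09), and 8 of 10 27HC tumours lay below the DMSO median.

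Pdha1 (chromosome X, 160122209 to 160138413), which carries the phosphorylated serines, ran from 82.2 to 152.9 CPM in DMSO tumours, median 113.0, and from 83.6 to 161.3 CPM in 27HC tumours, median 99.0. Its log2 fold change was -0.10 (SE 0.14). As for Pdp1, all 5 low GC libraries lay above the other 14: 146.8 ± 11.3 CPM (SD) against 101.2 ± 12.6 CPM. In the 14 other libraries the group means were 108.7 ± 13.1 CPM (SD, n = 7) for DMSO and 93.8 ± 6.74 CPM (SD, n = 7) for 27HC, a fitted log2 difference of -0.21 (SE 0.09). Without the 7 muscle-rich libraries the log2 fold change was -0.44 (SE 0.14) for Pdha1 and -0.46 (SE 0.21) for Pdp1, but then the only low GC libraries left were DMSO tumours.

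Counting per kilobase, the genes fell in the order Pdhb (42.5 CPM per kilobase), Pdha1 (39.8), Pdk3 (23.6), Pdk2 (18.1), Dlat (11.6), Pdhx (8.56), Pdk1 (8.51), Pdp2 (1.79), Pdp1 (1.502) and Pdk4 (1.12), as means over 19 tumours. Some neighbours in this order did not keep their place in every tumour: Pdhb exceeded Pdha1 in 14 of 19, Pdk3 exceeded Pdk2 in 17 of 19, Pdk2 exceeded Dlat in 16 of 19, Dlat exceeded Pdhx in 18 of 19, Pdhx exceeded Pdk1 in 14 of 19, Pdp2 exceeded Pdp1 in 13 of 19 and Pdp1 exceeded Pdk4 in 14 of 19. Pdk1 exceeded Pdp2 in all 19. With the median coding length, Pdp1 (2.47) and Pdk4 (1.92) lay above Pdp2. The spread also set the genes apart. The SD of log2 CPM within the treatments was 0.15 for Pdhx, 0.18 for Pdhb, 0.22 for both Pdk1 and Pdp2, and 1.74 for Pdk4, against a median of 0.48 over all 15629 tested genes. Only 1.48% of the tested genes varied less than Pdhx, and 99.0% varied less than Pdk4.

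**Figure D4:**
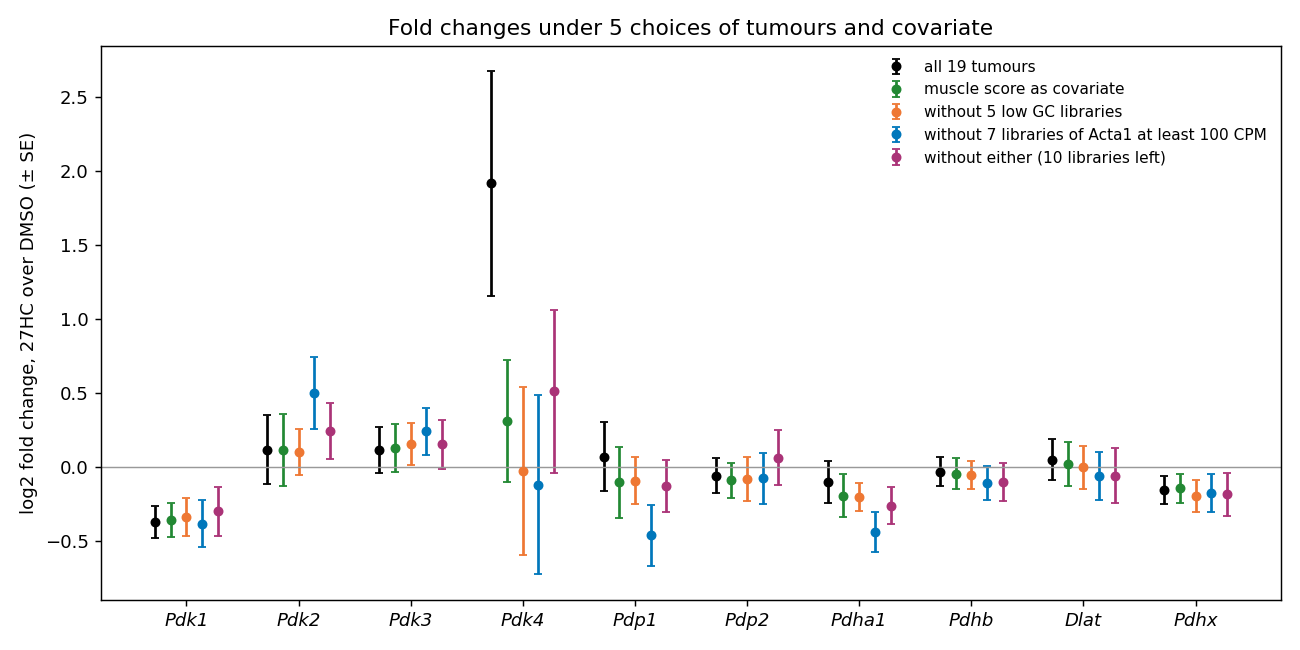
Log2 fold change of each gene, 27HC over DMSO, with its standard error, for 5 choices: all 19 tumours, the muscle score as covariate, and fits without the low GC libraries, without the muscle-rich libraries and without either. Pdk1 stays between -0.38 and -0.30 in all 5, and Pdk4 goes from 1.92 to values between -0.12 and 0.51.

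The low GC libraries differed from the others in several of these genes, most in Pdk4, followed by Pdp1 and Pdk2, which lie at the ends of the GC range. Pdp1 transcripts have 39.2% GC and Pdk2 transcripts 56.9%, with the other 8 genes between 44.9 and 47.7%. On the log2 CPM scale, the 5 libraries differed from the other 14 by 0.96 for Pdp1, 0.54 for Pdha1, 0.20 for Pdp2, 0.07 for Dlat, 0.03 for Pdk1, -0.44 for Pdk3 and -0.92 for Pdk2, and by -0.0020 for Pdhb and -0.0079 for Pdhx. Over all tested genes the median of this difference was 1.18 in genes under 42% GC and -0.70 in genes of at least 54% GC. Within the middle of the range several genes did not follow their class. Between 46 and 50% GC the median was 0.29, while Pdk3 lay at -0.44 and Pdk1, Dlat and Pdhb near 0. Pdp2, of the same class, lay nearer to it at 0.20. Between 42 and 46% GC the median was 0.72, with Pdha1 at 0.54 and Pdhx near 0. The value for Pdk4 was 2.27, above the median of 0.72 for genes between 42 and 46% GC, and 3 of these 5 libraries were muscle-rich. The part of GC content in the differences between treatments was not tested beyond the fits given here.

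**Figure D5:**
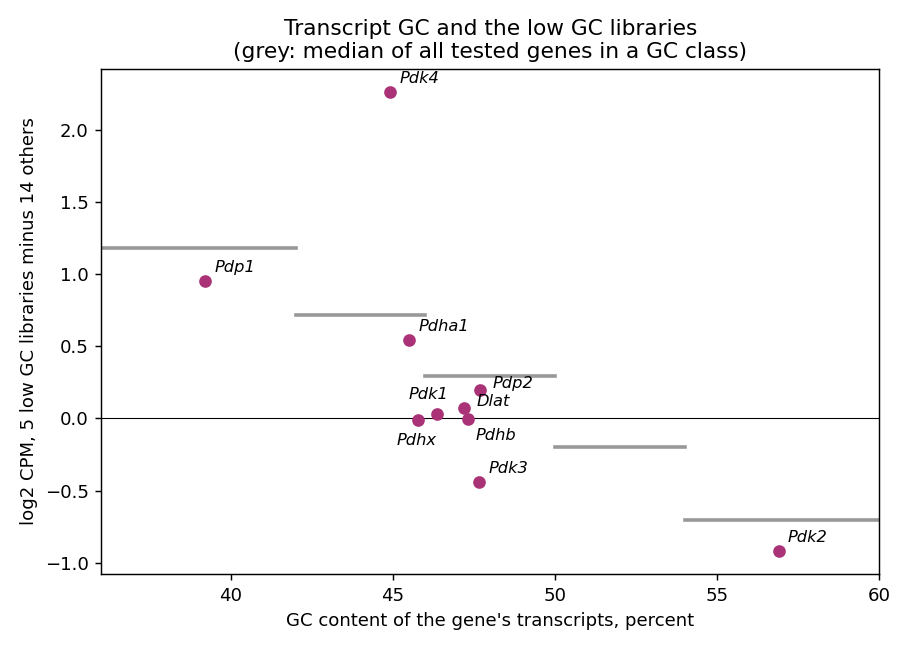
Mean log2 CPM in the 5 low GC libraries minus that in the 14 others, against the GC content of each gene's transcripts in percent; points are the 10 genes and grey lines the median of all tested genes in each GC class. Pdp1 and Pdk2 lie near the lines of their classes, at 0.96 and -0.92, and Pdk4 lies at 2.27.

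Across the whole table, edgeR's quasi-likelihood test with Benjamini-Hochberg adjustment called 0 of 15629 genes (0%) between the treatments at an adjusted p of 0.05, so 0 of the 10 genes; the smallest adjusted p was 0.838 and 354 genes had an unadjusted p under 0.05. limma-voom called 0 genes, and DESeq2 called 2 of 26579 (0.00752%), neither of them among the 10. Nothing is read from these counts for Pdk1 and Pdk4, since that contrast chose them.

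The first number of the title was not used to choose the genes and could be tested. In a model with treatment, edgeR called 0 of 15629 genes (0%) for number 2 against number 1, with 384 at an unadjusted p under 0.05 and a smallest adjusted p of 0.899. limma-voom called 0, and DESeq2 called 51 of 26437 (0.193%), all lower and none among the 10 genes. Pdk4 had the largest value of the 10, a log2 fold change of -1.67 (SE 0.68, edgeR adjusted p = 1.00), and the 20 skeletal muscle genes were all below 0, with a median of -3.59. Over all tested genes 8317 of 15629 were below 0. With the muscle score as covariate the Pdk4 value was 0.10. Pdk2 had -0.30 (SE 0.24), and the other 8 genes lay between -0.11 and 0.05. The interaction of treatment and number asks whether the 27HC difference depended on that number. edgeR again called 0 of 15629 genes (0%), with 223 at an unadjusted p under 0.05, limma-voom 0 and DESeq2 1 of 26481 (0.00378%), none of them among the 10. For Pdk1 the interaction was 0.06, with a 95% interval of -0.42 to 0.54, so an effect of the number on its difference was neither seen nor closely bounded.

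Genes around the complex were taken from lists drawn up with earlier results of these tumours known, and 0 of them passed edgeR's adjusted threshold in any of the 3 comparisons. Of the 8 tested partners of the complex, 3 were above 0 with 27HC, with a median log2 fold change of -0.04 against 0.01 over all tested genes. Of all tested genes, 8430 of 15629 were above 0, and the counts above 0 given for the lists were not tested. The mitochondrial pyruvate carrier genes Mpc1 and Mpc2 each had 0.23 (SE 0.17), the lipoic acid synthase gene Lias -0.16 (SE 0.11) and the lipoyl transferase gene Lipt2 -0.13 (SE 0.20). Dld, the E3 enzyme, averaged 61.0 ± 28.0 CPM in 9 DMSO tumours (SD) and 60.2 ± 30.2 CPM in 10 27HC tumours (SD), and with 40.6% GC it lay above the other 14 in all 5 low GC libraries. Among 9 genes of related 2-oxoacid dehydrogenase complexes, such as those for branched-chain and 2-oxoglutarate oxidation, 5 were above 0, with a median of 0.02. The branched-chain kinase gene Bckdk had -0.02 (SE 0.26) and the E1 beta gene Bckdhb 0.02 (SE 0.11). The E2 gene Dlst had -0.07 (SE 0.11) and the E1 gene Dhtkd1 0.06 (SE 0.17).

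Downstream of the complex, 0 of 15 citric acid cycle genes lay above 0 with 27HC, against 8430 of all 15629 tested genes. The shift was small, with a median of -0.08, and it was not tested for the list. Examples were the succinate dehydrogenase genes Sdhd, with -0.20 (SE 0.10), and Sdhb, with -0.01 (SE 0.19), the isocitrate dehydrogenase gene Idh3b, with -0.11 (SE 0.09), and the fumarase gene Fh1, with -0.05 (SE 0.15). Of 26 hypoxia and glycolysis genes, the list to which Pdk1 is often counted, 2 lay above 0, with a median of -0.08. Pgk1, a glycolytic kinase, had -0.27 (SE 0.13), the hexokinase gene Hk2 -0.12 (SE 0.18), the collagen hydroxylase gene P4ha1 -0.03 (SE 0.12) and the angiogenic factor gene Vegfa -0.02 (SE 0.12). Pdk1, at -0.37, was chosen by this same contrast, so nothing is read from its size beside these 4 genes.

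Of 23 tested genes of fatty acid oxidation and its regulators, which include common companions of Pdk4, 13 were above 0, with a median of 0.01. That is near the share over all tested genes, 8430 of 15629. Ucp3, a mitochondrial carrier of muscle, had 0.93 (SE 0.61); the coactivator gene Ppargc1a had 0.14 (SE 0.45), the forkhead gene Foxo3 0.28 (SE 0.18) and the thioesterase gene Acot2 -0.16 (SE 0.18). Ucp3 was highest in 27HC 1_5 and 1_3, with 4.06 and 3.64 CPM, the tumours with the most Pdk4. The match did not extend to 27HC 2_3, which came next in Pdk4 with 8.80 CPM. Its Ucp3 value of 1.16 CPM lay below those of DMSO 1_2 and 27HC 1_2, with 1.86 and 1.84 CPM. Of the 13 genes listed for the glucocorticoid receptor and its widely induced targets, 10 were above 0, with a median of 0.26. These included Tsc22d3, with 0.79 (SE 0.16), the clock gene Per1, with 0.80 (SE 0.34), the metallothionein gene Mt2, with 0.60 (SE 0.32), and the chaperone gene Fkbp5, with 0.33 (SE 0.16).

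Relations between genes within the treatments did not enter the choice of the 10 genes, apart from that of Pdk4 to muscle, and were tested by permutation within the groups after subtraction of treatment means. Over 19 tumours, 4 of 45 pairs among the 10 genes and 9 of 50 relations with 5 list scores passed a Benjamini-Hochberg adjusted p of 0.05. All 4 pairs and 8 of the 9 relations involved Pdk2, Pdp1 or Pdha1, the genes that most followed library GC content, with r of 0.78, -0.94 and -0.94 to it. The low GC libraries formed a cluster apart in these genes, so no pooled value is given for them. In the 14 libraries of higher GC content 0 pairs and 0 relations passed. There the correlation of Pdp1 with Pdha1 was 0.79 (permutation p = 0.0168, adjusted p = 0.169), that of Pdk2 with Pdk3 was 0.40 and that of Pdk2 with the hypoxia and glycolysis score was 0.50.

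The remaining relation was that of Pdhb, whose r with library GC content was -0.05, to the citric acid cycle score. Pearson's r was 0.72 (permutation p = 0.00060, adjusted p = 0.0054) and Spearman's rho 0.69 (permutation p = 0.0019, adjusted p = 0.023) over 19 tumours, and r was 0.58 without the 2 tumours farthest from the median. It was 0.74 in the 14 libraries of higher GC content (permutation p = 0.0048, adjusted p = 0.097) and 0.81 with library GC content regressed out (adjusted p = 0.0045). Within the tumours of first number 1 it was 0.70 (exact permutation p = 0.022, adjusted p = 0.22) and within those of number 2 also 0.70 (exact permutation p = 0.098, adjusted p = 0.21). Pdhb and Pdhx, a pair that did not pass over all tumours, had r = 0.60 (permutation p = 0.0087, adjusted p = 0.078) and 0.68 in the 14 libraries.

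Pdk1 and Pdk4 showed no relation to each other within the treatments. Their r was 0.17 (permutation p = 0.53, adjusted p = 0.76) over 19 tumours and -0.02 in the 14 libraries of higher GC content. Pdk1 also had no detected relation to the hypoxia and glycolysis score, with r = 0.08 (permutation p = 0.76, adjusted p = 0.91) and 0.29 in the 14 libraries. These wide-ranging values over few tumours do not bound a weak relation.

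As a description, the genes whose log2 CPM was most like that of Pdk1 were sought among 12117 protein-coding genes over the 19 tumours, with treatment means subtracted. They were Sprtn, which encodes a protease for DNA-protein crosslinks (r = 0.72), Hic2 (0.64), Gm28035 (0.63), Gla, the alpha-galactosidase gene (0.61), and Fam114a2 (0.61). These are extremes picked from 12117 untested values over 19 tumours, and values of this size can arise without a relation. The most opposite were Lst1 (-0.69), B3gnt9 (-0.69) and Ltb, which encodes lymphotoxin beta (-0.67). For Pdk4 the most alike were Myh1, a fast myosin heavy chain gene (r = 0.91), Fhl1 (0.90), Tmod1 (0.90), Nrap (0.90) and Cmya5 (0.90), and the most opposite were Morn1 (-0.77), Cbs (-0.75) and Gja4 (-0.72). The likeness values of Pdk4 were higher than those of Pdk1, and in the 14 libraries of higher GC content its r with Myh1 was 0.83, against 0.71 for Pdk1 with Sprtn. Those 14 are part of the same 19 tumours that picked these genes, so they are no separate check.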

How the data were processed

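The values deposited are expected counts of 26796 genes in 19 columns, each matched to 1 sample by its title; per the submitters' processing notes the tools were kallisto 0.44.0, edgeR and limma with GRCm38, and what each did is not given in the sources used here. Libraries were stranded, poly(A)-selected and paired-end, per the labels' protocols. The deposited expected counts were rounded and tested with edgeR 4.0.16 (R 4.3.3; TMM, filterByExpr, quasi-likelihood test, Benjamini-Hochberg threshold 0.05); limma-voom 3.58.1 and DESeq2 1.42.0 were alternatives. The first title number was fitted beside treatment, and the interaction in a further model. Symbols, coordinates, transcript lengths and GC content came from GENCODE M21. Estimated counts share reads between similar transcripts, so values of close paralogues carry that uncertainty.

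Correlations used log2 CPM with a prior count of 2 and 100000 permutations within treatments, exact within 1 title number. A list score is the mean z-score of its tested genes. The genes and lists were chosen with earlier results of these data known. Named beside the 10 genes are Acta1, Dld, the 4 genes of each pathway list with the smallest unadjusted p for the title number (markers of other cell types were summed instead; Krt18, Epcam and Krt8 were named outside this rule, after their values were seen), and the 5 most alike and 3 most opposite genes of Pdk1 and Pdk4 whose mean reached 1 log2 CPM. The code of the fits and correlations was run on simulated data. The simulated fold changes were larger than most differences given here, and the libraries had no muscle or GC differences. That run checks the code and says nothing on the small differences reported here. No duplicated library was found within a treatment: the lowest chi-square per degree of freedom between tumours of a group was 42.2. Libraries of different treatments were not compared in this way. Alternatives chosen after seeing the data left out the 5 low GC libraries, alone or with the muscle-rich ones, corrected for library GC content, or used the median coding length.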

Additional observations from a re-analysis of the deposited data

Results flagged for a closer look

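The lowest and highest tumour of each treatment were checked for each of the 10 genes, 20 groups in all, by Dixon's ratio of the gap to the range; chance alone marks about 1 in 20 groups. Pdp2 in DMSO 1_3 stood apart, with 6.45 CPM against 10.1 CPM or more in the other 8 DMSO tumours.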

How the results depend on the processing

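Counts of genes past the threshold were 0 in every alternative run for the 3 comparisons except these: DESeq2 called 2 between treatments, 51 for the first title number and 1 for the interaction, and the fit without low GC or muscle-rich libraries called 1 for the title number. None of the 10 genes was called in any of them. Between treatments, the edgeR fit without the muscle-rich libraries stood apart. It had 4424 of 15542 genes at an unadjusted p under 0.05, against 354 in the main fit, and a smallest adjusted p of 0.065. The only low GC libraries left there were DMSO tumours, and the Pdk1 and Pdk4 values of that fit share this imbalance. Leaving out each tumour gave 0 in all 3 comparisons. Of relations among the 10 genes, 2 to 5 passed without 1 tumour, with 2 without DMSO 2_3 and 2 without 27HC 1_3; relations with scores gave 7 to 14, with 14 without 27HC 1_2. Both counts were 0 without the muscle-rich libraries, within either title number and without the low GC libraries, where fewer tumours also lower what can pass. With GC content regressed out they were 0 and 1. In that setting r turned to 0.31 for Pdk2 with Pdha1 and 0.20 for Pdk2 with Pdp1; with the hypoxia score to 0.15 for Pdha1 and 0.094 for Pdp1; and with the fatty acid score to 0.44 for Pdha1 and 0.061 for Pdp1. Pdk1 with Pdk4 turned to -0.023 without the low GC libraries and -0.033 without the 2 farthest tumours. Causes beyond the settings themselves were not tested.

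Of the uncalled title-number values, these turned sign. With the muscle score as covariate they were 0.10 for Pdk4, 0.13 for Pdp1, 0.036 for Pdp2 and 0.090 for Pdha1. Without the muscle-rich libraries they were 0.081 for Pdk3, 0.012 for Pdp2 and 0.0026 for Pdha1. Without the low GC libraries they were 0.055 for Pdk1, 0.11 for Pdp1, 0.017 for Pdp2 and 0.12 for Pdha1. Without either they were 0.039 for Pdk3, 0.86 for Pdk4, 0.15 for Pdp2 and 0.10 for Pdha1, and with library GC content as covariate 0.035 for Pdp1 and 0.021 for Pdha1. Leaving out 1 tumour gave ranges of -0.097 to 0.010 for Pdk1, -0.19 to 0.095 for Pdp1, -0.093 to 0.019 for Pdp2, -0.095 to 0.063 for Pdha1, -0.045 to 0.16 for Dlat and -0.053 to 0.020 for Pdhx.

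The treatment difference of Pdk1 was between -0.43 and -0.30 in every alternative run. Pdk4 ran from 1.29, without 27HC 1_5, to 2.19 when 1 tumour was left out; limma-voom gave 1.22, and it was not fitted under the filter at a mean of 1 log2 CPM, which it does not reach. With the full title number as replicate block 0 genes passed, Pdk1 had -0.42 and Pdk4 1.34. The labels do not say that the numbers pair tumours, and only 5 of 9 same-numbered pairs had deviations correlated above 0.1. With the median coding length the Pdk4 share of the kinase pool was 1.57% in DMSO and 5.78% in 27HC tumours.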
